A study of Mus musculus with 9 samples.

Results

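The 9 genes described here encode the signalling apparatus of the T cell receptor, the surface complex through which a T cell detects antigen, and they were chosen by name as its CD3 chains, its first kinases and adaptors and a receptor that restrains it. They were Cd3d, Cd3e, Cd3g, Cd247, Lck, Zap70, Lat, Lcp2 and Cd5, 9 of the 20926 genes in the expression table, and all 9 were among the 12366 genes expressed highly enough to be tested. Blood RNA of male DBA/1 mice, 7 weeks old per the labels, was sequenced in 9 libraries, with 3 libraries in each of 3 groups. That is the age at grouping, before arthritis was raised and ankles were irradiated. At least the arthritic mice were therefore older when their blood was taken. The Ctrl mice were healthy and not irradiated. The CIA mice had collagen-induced arthritis, an autoimmune joint disease raised with type II collagen in adjuvant. The CIA+THz mice were arthritic in the same way, and their swollen ankles were irradiated at 0.1 THz for 30 min a day over 14 days under anaesthesia, and no anaesthesia is described for the unirradiated mice. Anaesthesia and irradiation therefore cannot be told apart. Each library was taken to come from a different mouse, since the labels number the libraries within a group and the study describes no pooling. The comparisons asked how these genes differed between arthritic and healthy blood, and between irradiated and unirradiated arthritic blood.

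The T cell receptor itself has no enzyme activity. Its CD3 chains and the zeta chain carry short tyrosine motifs, which the kinase Lck phosphorylates when the receptor meets antigen. Zap70 docks on these motifs and phosphorylates the adaptors Lat and Lcp2 (SLP-76), on which the enzymes of calcium and Ras signalling assemble, while Cd5 lowers the strength of the signal. In blood these transcripts come mainly from T cells, but not from T cells alone. NK cells also use Cd247, Zap70, Lat and Lck, platelets contain Lat and Lcp2, myeloid cells contain Lcp2, and a subset of B cells bears Cd5.

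The libraries were labelled as blood leukocytes, although RNA was extracted from total blood. Of 13 T cell markers, 10 were measured, and none of these 10 was at 0 in any library. Markers of neutrophils, monocytes, B cells, NK cells, platelets and red cell precursors were also present, and the summed level of the 8 red cell precursor markers, 54127 to 122367, exceeded the summed level of the 9 receptor genes, 474 to 627, in every library. Levels are FPKM, fragment counts scaled to transcript length and library size, divided by 1 scaling factor per library (0.847 to 1.24). FPKM is a share of the sequenced RNA, so in bulk blood fewer cells of a type and less RNA per cell cannot be told apart. The depth of the libraries is unknown, because the values retain no read counts.

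The promoters of the members are shown first, for the 3 genes whose levels ran closest to the average of all 9 across the libraries (Lck, Cd247 and Cd3e) and the 2 that ran farthest from it (Lcp2 and Cd5). Each sequence is a 150-base stretch of the RefSeq promoter on GRCm38.p6, 5′ to 3′ on the gene's strand, with CAGGAA, a core recognised by ETS factors, and TGTGGT, a core recognised by RUNX factors, in capitals on either strand. The stretches lie at chr4:129573642-129573791 on the minus strand for Lck, chr1:165788531-165788680 on the plus strand for Cd247, chr9:45009612-45009761 on the minus strand for Cd3e, chr19:10738975-10739124 on the minus strand for Cd5 and chr11:34046778-34046927 on the plus strand for Lcp2. RefSeq lists 2 starts for Lck, and the first is shown.
Lck: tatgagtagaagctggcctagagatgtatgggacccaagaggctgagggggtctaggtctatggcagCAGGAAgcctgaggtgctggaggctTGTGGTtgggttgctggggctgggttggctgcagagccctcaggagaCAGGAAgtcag
Cd247: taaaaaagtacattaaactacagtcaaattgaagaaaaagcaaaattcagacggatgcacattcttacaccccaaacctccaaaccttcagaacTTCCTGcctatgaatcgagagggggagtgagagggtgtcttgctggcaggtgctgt
Cd3e: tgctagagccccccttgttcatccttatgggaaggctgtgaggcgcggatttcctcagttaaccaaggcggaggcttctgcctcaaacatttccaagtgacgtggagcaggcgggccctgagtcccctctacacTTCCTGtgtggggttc
Cd5: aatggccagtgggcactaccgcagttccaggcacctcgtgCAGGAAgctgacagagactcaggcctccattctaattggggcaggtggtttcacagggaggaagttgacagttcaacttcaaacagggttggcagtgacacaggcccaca
Lcp2: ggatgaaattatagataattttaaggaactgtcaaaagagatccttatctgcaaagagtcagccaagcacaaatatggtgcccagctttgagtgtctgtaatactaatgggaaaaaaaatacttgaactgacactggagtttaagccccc
All 9 members matched a RefSeq promoter, with 12 windows of 250 bases before the start among them, since Lck and Zap70 have more than 1 start. The ETS core CAGGAA, or its reverse TTCCTG, was present in 8 of the 12 windows and in 7 of the 9 genes, and in 25.7% of all 32851 promoter windows of the same length. It lay 16 bases before the start of Cd3e, 16 before that of Lat, 56 before that of Cd247 and 83 and 11 before the first start of Lck. Cd3g and Lcp2 had no match within the window, and the sequence of Lcp2 shown above accordingly has no capitals. The E-box CAGGTG, or CACCTG, was present in 7 of 12 windows and 17.2% of all, the RUNX core TGTGGT, or ACCACA, in 2 of 12 and 14% of all, and the TCF/LEF core CTTTGA, or TCAAAG, in 3 of 12 and 13.8% of all. The GATA core GATAAG, or CTTATC, was in 2 of 12 windows and 6.55% of all. The ETS and RUNX matches of the second Zap70 window share letters, no other matches in the members' windows do, and a match describes the sequence and not binding.

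Across the 3 groups, differences were found in 2 of the 9 genes, Cd5 and Lck, at an unadjusted p under 0.05 in limma, a share close to the 21.3% of all tested genes that passed the same threshold. After Benjamini-Hochberg adjustment over all genes, none of the 9 was below 0.05, where 2.53% of tested genes were. The adjusted p was 0.0828 for Cd5, 0.226 for Lck, 0.246 for Cd3e and 0.316 for Lat in limma, and higher for the other 5 genes. Lck passed 0.05 unadjusted by a small margin and no longer did so without Ctrl library 2 or 3, CIA+THz library 1 or 2, or CIA library 2 or 3. By analysis of variance on linear values Cd5 was no longer under 0.05, while Lck still was and Cd3e was too. The direction was shared more widely than the threshold was passed. In CIA blood 8 of 9 genes had a lower mean log2 level than in Ctrl blood, and in CIA+THz blood 8 of 9 had a higher one than in CIA blood. The first share compares with 50.5% of all tested genes and the second with 52.9%, and both comparisons use the same CIA libraries. The split depended on single mice, with 7 lower and 2 higher in CIA against Ctrl without Ctrl library 2 or CIA library 3, and in CIA+THz against CIA 7 higher and 2 lower without CIA+THz library 1 and 6 and 3 without CIA library 3.

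**Figure D1:**
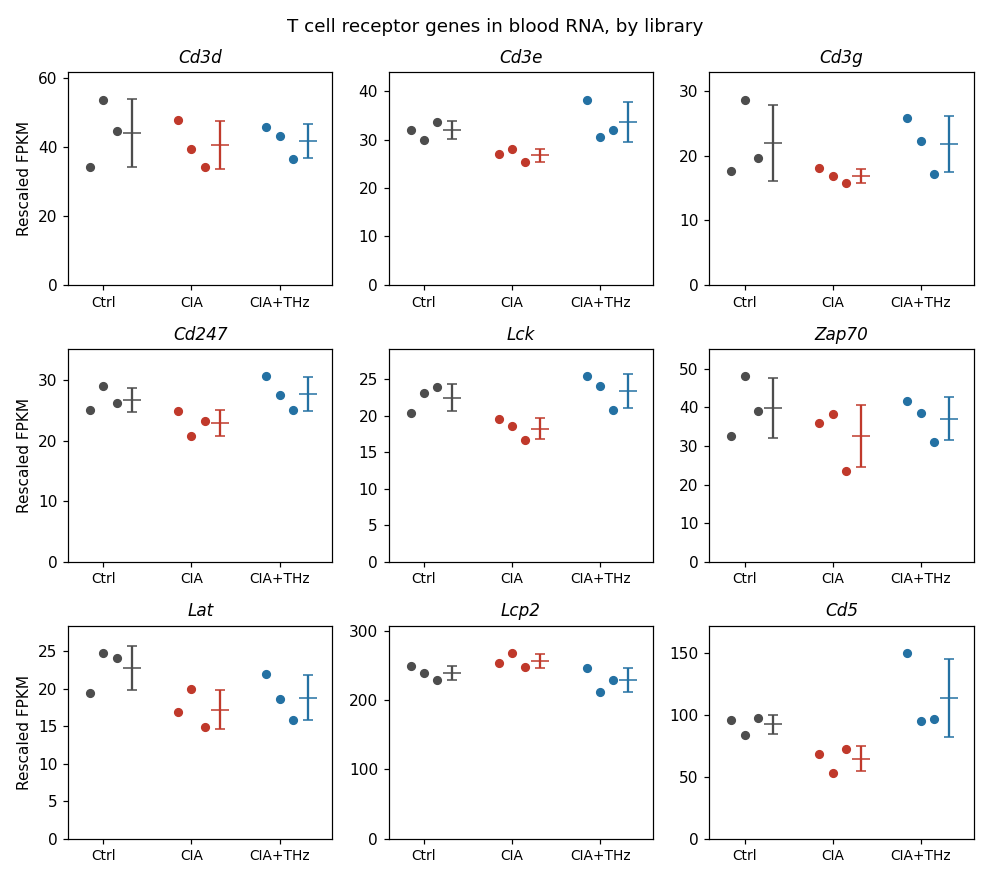
Rescaled FPKM of the 9 genes, 1 panel a gene, with points for the 3 libraries of Ctrl, CIA and CIA+THz and beside them the mean ± SD. Cd5 shows the widest separation, with the 3 CIA libraries between 53.2 and 71.9 and the 3 CIA+THz libraries between 94.6 and 149.5.

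Among the receptor chains, Cd3e and Cd247 had CIA libraries below both other groups, whereas Cd3d varied as much within the groups as between them. Cd3e encodes the epsilon chain, which pairs with the gamma and delta chains in every receptor. It was at 32.1, 29.97 and 33.7 in the Ctrl libraries, 26.96, 28.02 and 25.3 in the CIA libraries and 38.3, 30.6 and 31.96 in the CIA+THz libraries. All 3 CIA libraries lay under all 6 others. The log2 difference was -0.25 (SE 0.11, adjusted p = 0.303, limma) for CIA against Ctrl and 0.32 (SE 0.11, adjusted p = 0.319, limma) for CIA+THz against CIA. The unadjusted p was under 0.05 in the second comparison and not in the first, and neither difference reached the size of 0.67 on the log2 scale that the pairwise criterion required beside it.

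Cd247 encodes the zeta chain, which carries most of the tyrosine motifs of the complex. Its level was 25.2, 29.0 and 26.2 in Ctrl, 24.9, 20.7 and 23.2 in CIA and 30.6, 27.7 and 25.01 in CIA+THz. The CIA libraries again lay below all others, although the highest of them almost met the lowest of each other group. Its log2 difference was -0.22 (SE 0.13) for CIA against Ctrl and 0.27 (SE 0.12) for CIA+THz against CIA, and neither passed p under 0.05 in limma.

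Cd3g and Cd3d, the gamma and delta chains, lie head to head on chromosome 9 with 1354 bases between their annotated starts, and Cd3e lies 11400 bases beyond the end of Cd3d. Cd3g was at 17.7, 28.7 and 19.7 in Ctrl, 18.1, 16.8 and 15.8 in CIA and 25.9, 22.2 and 17.2 in CIA+THz. Its CIA libraries spanned a narrow range that overlapped the lower end of both other groups. For Cd3g the log2 difference was -0.35 (SE 0.20) for CIA against Ctrl and 0.35 (SE 0.16) for CIA+THz against CIA. Cd3d was at 34.1, 53.7 and 44.5 in Ctrl, 47.9, 39.5 and 34.2 in CIA and 45.8, 43.1 and 36.4 in CIA+THz. Its highest and its lowest library were both Ctrl mice, and its log2 differences were -0.11 (SE 0.20) and 0.05 (SE 0.15). The 3 neighbouring CD3 genes therefore had different estimates, but a difference between them was not tested.

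Of the kinases, Lck had 3 CIA libraries below all others and Zap70 did not. Lck, the Src family kinase bound to the CD4 and CD8 coreceptors, was at 20.3, 23.1 and 24.0 in Ctrl, 19.5, 18.5 and 16.7 in CIA and 25.3, 24.0 and 20.8 in CIA+THz. Every CIA library was below every library of the other groups, and the gap between the nearest Ctrl and CIA libraries was smaller than the spread within either group. Lck differed by -0.30 on the log2 scale (SE 0.13, adjusted p = 0.299, limma) in CIA against Ctrl and by 0.36 (SE 0.12, adjusted p = 0.2996, limma) in CIA+THz against CIA. The unadjusted p was under 0.05 in the second comparison alone, and the size was under 0.67 in both.

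Zap70, the kinase recruited to the phosphorylated chains, was at 32.5, 48.0 and 39.1 in Ctrl, 35.9, 38.3 and 23.5 in CIA and 41.8, 38.5 and 31.0 in CIA+THz. The low value of the third CIA library set the CIA mean, and the other 2 CIA libraries lay within the Ctrl range. For Zap70 the log2 difference was -0.31 (SE 0.23) for CIA against Ctrl and 0.21 (SE 0.21) for CIA+THz against CIA. Without the third CIA library the latter difference was -0.01.

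The adaptors Lat and Lcp2 had estimates of opposite sign in both comparisons with CIA, in the second with the scaling factors only. Lat, the membrane scaffold that Zap70 phosphorylates, was at 19.4, 24.7 and 24.1 in Ctrl, 16.9, 19.9 and 14.9 in CIA and 21.9, 18.6 and 15.9 in CIA+THz. The Ctrl and CIA ranges met between 19.4 and 19.9, and the CIA+THz libraries overlapped both groups. For Lat the log2 difference was -0.40 (SE 0.16, adjusted p = 0.276, limma) for CIA against Ctrl, with an unadjusted p under 0.05, and 0.12 (SE 0.16) for CIA+THz against CIA. For CIA+THz against Ctrl it was -0.28 (SE 0.16, adjusted p = 0.405, limma), the lowest estimate of the 9 genes in that comparison. That difference was 0.030 with FPKM as deposited, without the scaling factors.

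Lcp2, the cytosolic adaptor that joins Lat to its effectors and is shared with myeloid cells and platelets, was the only one of the 9 with its highest mean in CIA. It was at 249.6, 240.3 and 229 in Ctrl, 255, 268 and 248 in CIA and 247, 213 and 229.9 in CIA+THz. The CIA+THz libraries were all below the CIA libraries, by a margin under 1 SD of either group at the nearest pair, and the Ctrl range overlapped both groups. For Lcp2 the log2 difference was 0.10 (SE 0.10) for CIA against Ctrl and -0.16 (SE 0.09, adjusted p = 0.490, limma) for CIA+THz against CIA. With FPKM as deposited, without the scaling factors, the second was 0.11, the opposite sign.

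Cd5, the scavenger receptor family protein that dampens receptor signalling, was the only one of the 9 genes past the pairwise criterion, and it rose in CIA+THz against CIA. It was at 96.0, 83.4 and 97.3 in Ctrl, 68.2, 53.2 and 71.9 in CIA and 149.5, 94.6 and 96.2 in CIA+THz. All CIA libraries were below all others, and 1 CIA+THz mouse stood well above the other 2, which lay within the Ctrl range. Cd5 rose by 0.79 on the log2 scale (SE 0.21, adjusted p = 0.239, limma) in CIA+THz against CIA, and was higher in 3 of 3 libraries than in any CIA library. Without the first CIA+THz library the difference was 0.58, and without the second CIA library 0.66, both under the required size, with an unadjusted p still under 0.05 in limma. For CIA against Ctrl the difference was -0.53 (SE 0.15, adjusted p = 0.153, limma), with an unadjusted p under 0.05 but short of 0.67 in size. For CIA+THz against Ctrl it was 0.27 (SE 0.19, adjusted p = 0.488, limma).

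**Figure D2:**
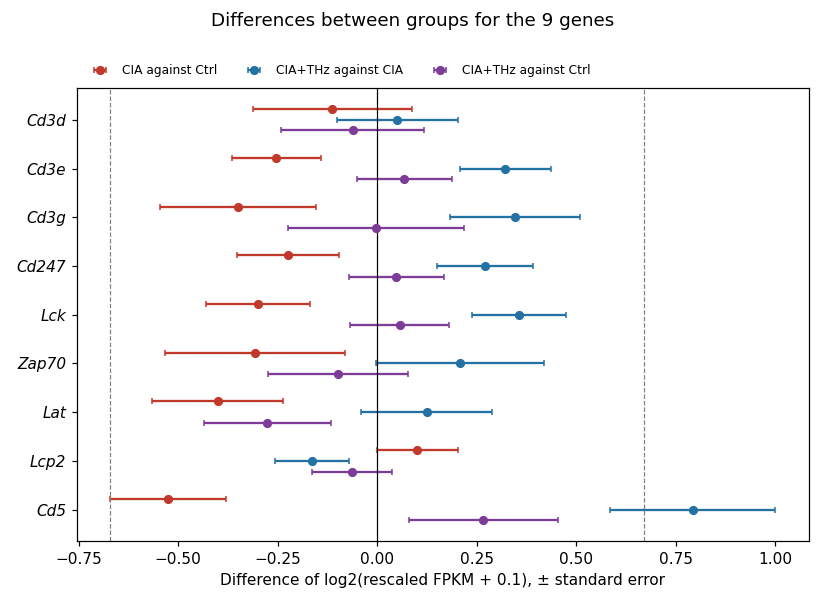
Log2 difference of each of the 9 genes, with its standard error, in CIA against Ctrl, CIA+THz against CIA and CIA+THz against Ctrl, and dashed lines at the required size of 0.67 in either direction. Cd5 at 0.79 in CIA+THz against CIA is the only point past 0.67.

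Counted over the 9 genes, none was past the criterion in CIA against Ctrl, where 9.04% of tested genes were, 4.79% higher and 4.25% lower. At an unadjusted p under 0.05 alone, 2 of 9 were called (Lat and Cd5, both lower) against 17.3% of tested genes, 8.45% in that direction, and in 4 of 9 (Cd3e, Cd247, Lck and Cd5) every CIA library was below every Ctrl library, against 11.8% of tested genes. The count of 2 was 1 without Ctrl library 3 or CIA library 3. The median log2 difference was -0.30, or -0.16 without Ctrl library 2, and over all tested genes it was -0.0051. Between CIA+THz and CIA, 1 of 9 was past the criterion and higher, against 4.54% of tested genes, 2.94% higher and 1.6% lower. At p under 0.05 alone, 3 of 9 were called (Cd3e, Lck and Cd5, all higher) against 13.2% of tested genes, 5.89% in that direction, and the same 4 genes as before had every CIA+THz library above every CIA library, against 9.38%, while Lcp2 did not overlap in the other direction, against 10.2%. The count of 3 was 1 without CIA+THz library 1 or CIA library 3, and 5 without CIA+THz library 3 or with FPKM as deposited. The median was 0.27, and over all tested genes 0.025. No gene of the whole table had an adjusted p under 0.05 in limma in that comparison, while 1634 had an unadjusted p under 0.05. Between CIA+THz and Ctrl, none of the 9 had an unadjusted p under 0.05, against 18.1% of tested genes, and none was past the criterion, against 7.88%, 4.64% higher and 3.24% lower. The groups overlapped for all 9, where 11.9% of tested genes were higher and 12% lower without overlap, and 4 of the 9 were higher and 5 lower, beside 53.7% and 46.1% of all tested genes. That split was 1 and 8 without CIA+THz library 1, and 7 and 2 without Ctrl library 2 or CIA+THz library 3. Adjusted p under 0.05 was reached by 0.154% of tested genes in CIA against Ctrl and 0.105% in CIA+THz against Ctrl, none of them among the 9.

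The scaling moved these estimates together. With FPKM as deposited, the median of all tested genes was higher by 0.27 in CIA+THz against CIA and by 0.29 in CIA+THz against Ctrl, and by 0.025 in CIA against Ctrl. All 9 genes were then higher in CIA+THz than in CIA, with a median of 0.55, beside 0.29 over all tested genes. All 9 were also higher in CIA+THz than in Ctrl, with a median of 0.30, beside 0.33 over all tested genes. The share of tested genes past the criterion and higher in CIA+THz against CIA was then 9.14%, and Cd5 was still the only one of the 9 past it.

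Levels between the genes are comparable per length in FPKM, within the limit that the deposited table gives 1 value a symbol and its rule for combining transcripts is not given in the sources used here. In Ctrl blood Lcp2 was the highest, at 239.8 ± 10.1 (SD, n = 3), followed by Cd5 at 92.2 ± 7.65, and these did not overlap with each other or with any other member. Cd3d (44.1 ± 9.81), Zap70 (39.9 ± 7.79) and Cd3e (31.9 ± 1.88) followed. Cd3d and Zap70 did not differ beyond their spread, and the libraries of Zap70 and Cd3e overlapped at the ends of their ranges alone. Cd247 (26.8 ± 1.99), Lat (22.7 ± 2.92), Lck (22.5 ± 1.89) and Cd3g (22.01 ± 5.87) closed the order. Cd247 was above Lat and Lck and below Cd3e without overlap, and Lat, Lck and Cd3g did not differ beyond their spread. Across all 9 libraries Cd5 varied the most, 2.81-fold between its lowest and highest library, then Zap70 at 2.05-fold, and Lcp2 the least at 1.26-fold. CIA+THz library 1 was the highest for Cd3e, Cd247, Lck and Cd5, Ctrl library 2 for Cd3d, Cd3g, Zap70 and Lat, and CIA library 3 was the lowest for Cd3e, Cd3g, Lck, Zap70 and Lat. Several genes were thus high or low in the same mouse.

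To set the signalling genes against the receptor they serve, their log2 level was taken relative to the mean log2 level of the 4 chains Cd3d, Cd3e, Cd3g and Cd247 in the same library. This ratio does not depend on the scaling except through the pseudocount. Lck kept close to the chains, with mean relative log2 levels of -0.41, -0.48 and -0.37 for Ctrl, CIA and CIA+THz, and exact two-sided permutation p of 0.5 for CIA against Ctrl and 0.2 for CIA+THz against CIA. Zap70 was at 0.40, 0.33 and 0.29, with exact permutation p of 0.8 in both of these comparisons. Of 15 comparisons, 3 reached the smallest p that 3 against 3 libraries allow, which is 0.1, so that none could pass 0.05. Such a p means no more than that the libraries of the compared groups did not overlap. By their own levels, 9.38% of all tested genes were higher and 10.2% lower without overlap in CIA+THz against CIA. In CIA+THz against Ctrl these shares were 11.9% and 12%. The share for levels relative to the chains was not computed.

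The first comparison at that smallest p was Cd5 in CIA+THz against CIA, with a difference of 0.54 (exact permutation p = 0.1). Its relative log2 level was 1.65 to 2.12 in CIA+THz and 1.09 to 1.59 in CIA. Cd5 was therefore higher relative to the chains in every CIA+THz library than in any CIA library, though the nearest pair almost met. The second was Lcp2, at 2.82 to 3.11 in CIA+THz and 3.20 to 3.42 in CIA, a difference of -0.41 (exact permutation p = 0.1). The third was Lat, at -0.74 to -0.65 in CIA+THz and -0.46 to -0.30 in Ctrl, a difference of -0.29 (exact permutation p = 0.1).

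**Figure D3:**
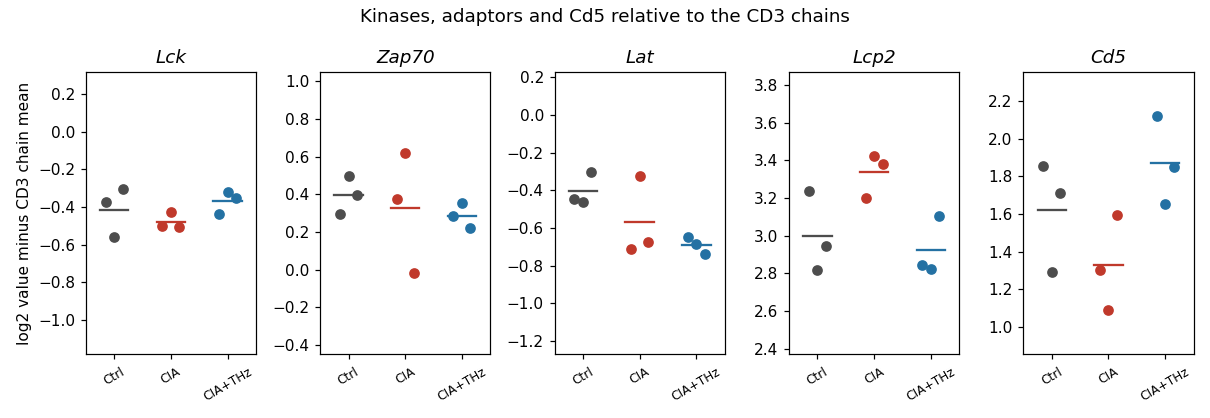
Log2 level of Lck, Zap70, Lat, Lcp2 and Cd5 minus the mean log2 level of the 4 CD3 and zeta chains in the same library, with points for the 3 libraries of each group and a line at their mean. Cd5 lies between 1.09 and 1.59 in CIA and between 1.65 and 2.12 in CIA+THz, and the Lck means lie between -0.48 and -0.37.

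Most other genes of the pathway had differences of the same sign, with few past the criterion. Of 43 listed genes 40 were measured, and the T cell receptor constant regions, which the list includes, were not matched by symbol and were not analysed here. In CIA against Ctrl 31 of 40 were lower and 9 higher, with a median of -0.22, and 3 were past the criterion and lower, beside 4.25% of all tested genes. Of the 40, 28 were higher in CIA+THz blood and 12 lower than in CIA blood, with a median of 0.19, and 1 was past the criterion and higher, beside 2.94% of all tested genes. Compared with Ctrl, 13 were higher and 27 lower in CIA+THz blood and none was past the criterion, beside 7.88% of all tested genes.

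The coreceptor genes Cd4, Cd8a and Cd8b1, whose proteins bring Lck to the receptor, all had their lowest mean in CIA blood, and none was past the criterion. The Ctrl mean of Cd8a was 20.8 ± 0.659, the CIA mean 14.5 ± 2.76 and the CIA+THz mean 20.9 ± 3.06 (SD, n = 3), and its log2 differences were -0.53 and 0.53. Of the 5 downstream kinases, Txk, a Tec family kinase, fell in CIA against Ctrl, by 0.74 on the log2 scale (SE 0.24, adjusted p = 0.198, limma). The means of the Ctrl, CIA and CIA+THz libraries were 7.60, 4.49 and 6.57, and the difference of 0.55 in CIA+THz against CIA did not reach 0.67. All 5 kinases were lower in CIA than in Ctrl, with a median of -0.63, and 4 of them had a higher mean with irradiation than in unirradiated CIA mice.

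Among 16 downstream adaptors and enzymes, 12 were lower in CIA than in Ctrl, and Trat1, a transmembrane adaptor that associates with the receptor, was the one past the criterion. Its Ctrl level was 14.4 ± 1.13, its CIA level 5.90 ± 1.59 and its CIA+THz level 9.10 ± 0.692 (SD, n = 3), with no overlap between any groups. It fell by 1.31 on the log2 scale in CIA against Ctrl (SE 0.22, adjusted p = 0.0669, limma), more than any of the 9 receptor genes. Its log2 difference was 0.65 (SE 0.22) in CIA+THz against CIA and -0.66 (SE 0.13, adjusted p = 0.0992, limma) in CIA+THz against Ctrl, both just under the required size. With irradiation 10 of the 16 were above their CIA level and 6 below it, and none was past the criterion.

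Among 16 brakes on the pathway, 11 were lower in CIA blood than in Ctrl blood, and 11 were above their CIA level in CIA+THz blood. Ubash3a, an inhibitor of T cell receptor signalling, was the one past the criterion in either. It fell by 0.80 on the log2 scale in CIA against Ctrl (SE 0.29, adjusted p = 0.230, limma) and rose by 0.78 in CIA+THz against CIA (SE 0.23, adjusted p = 0.268, limma). The Ctrl level was 10.5 ± 3.59, the CIA level 5.88 ± 1.34 and the CIA+THz level 10.1 ± 2.00 (SD, n = 3), and the 3 CIA libraries lay below all others. Without CIA+THz library 1 none of the 40 genes was past the criterion in CIA+THz against CIA, and with FPKM as deposited 8 were.

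**Figure D4:**
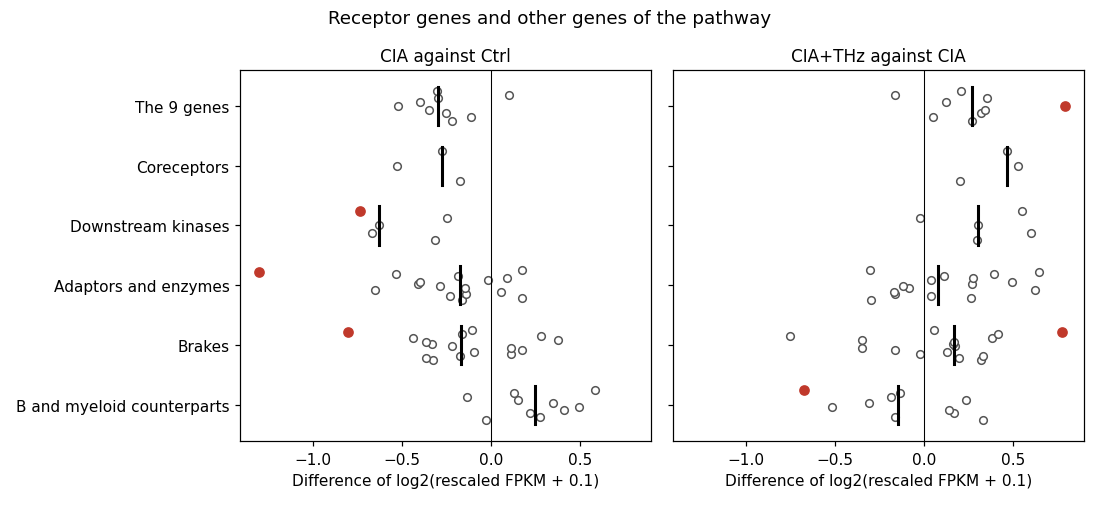
Log2 differences of the genes of each pathway list in CIA against Ctrl and CIA+THz against CIA, 1 point a gene, filled in red where the gene was past the criterion, with a black bar at each list's median. The 5 downstream kinases all lie below 0 in CIA against Ctrl, and Trat1 is the lowest point at -1.31.

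The counterparts of these genes in B and myeloid cells did not share the direction in CIA blood. Of 10 listed genes, 8 had a higher mean log2 level in CIA than in Ctrl, with a median of 0.24, and none was past the criterion. Tyrobp (DAP12), the adaptor that carries the same kind of tyrosine motif in myeloid and NK cells, had a Ctrl level of 227 ± 20.9, a CIA level of 339 ± 8.15 and a CIA+THz level of 213 ± 14.5 (SD, n = 3). It fell by 0.67 on the log2 scale in CIA+THz against CIA (SE 0.09, adjusted p = 0.172, limma), the only counterpart past the criterion. Fcer1g, the Fc receptor gamma chain, was at 412, 578 and 404, with log2 differences of 0.49 and -0.51. Syk, the relative of Zap70, was at 143, 158 and 142, and Lat2, the relative of Lat, at 5.11, 5.46 and 6.51. The B cell receptor chain Cd79a was at 219, 255 and 287.

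Markers of several cell types moved with the same comparisons, and their part in the results above was not tested. Beside the marker counts below, 4.79% of all tested genes were past the criterion and higher in CIA against Ctrl, and 4.25% lower. In CIA+THz against CIA these shares were 2.94% higher and 1.6% lower. The summed level of the 10 measured T cell markers, 2 of which are also on the pathway lists, ran from 438 to 487 among Ctrl libraries, from 357 to 393 among CIA libraries and from 462 to 568 among CIA+THz libraries. Of these 10, 9 were lower in CIA than in Ctrl and 2 past the criterion, and all 10 were above their CIA level in CIA+THz blood, with a median of 0.49, and 1 past it. The 8 NK cell markers, from cells that share Cd247, Zap70, Lat and Lck, summed to 153 to 195 for Ctrl, 56.7 to 121 for CIA and 102 to 154 for CIA+THz. All 8 were lower in CIA than in Ctrl, 5 past the criterion, and all 8 were above their CIA level after irradiation, 2 past it. The 10 B cell markers, from the lineage that holds the Cd5-bearing subset, summed to 478 to 566, 522 to 666 and 611 to 799, with 7 of 10 higher in CIA against Ctrl, 1 past the criterion, and 8 of 10 higher in CIA+THz against CIA, none past it.

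The monocyte markers, which come from cells that share Lcp2, summed to 3164 to 3488 for Ctrl, 5483 to 6086 for CIA and 3656 to 3941 for CIA+THz. All 11 were higher in CIA than in Ctrl, 7 past the criterion, and 10 of 11 were below their CIA level in CIA+THz blood, 3 past it. The 11 neutrophil markers summed to 12435 to 21008, 14589 to 19140 and 10700 to 12133, and all 11 were below their CIA level in CIA+THz blood, 4 past the criterion. In CIA against Ctrl 6 of the 11 were higher and 5 lower. Camp, Ltf and Ngp were past the criterion and higher, with log2 differences of 4.86, 4.08 and 3.02. Mmp8 was past it and lower, at -1.35. The 9 platelet markers, from cells that hold Lat and Lcp2, summed to 4477 to 5467, 4218 to 5396 and 3568 to 4297. All 9 were below their CIA level in CIA+THz blood, with a median of -0.41. An unadjusted p under 0.05 in limma was reached by 6 in that comparison, beside 13.2% of all tested genes, and none was past the criterion. The red cell precursor markers summed to 79122 to 122367, 97563 to 110793 and 54127 to 75091. Most of that sum was Alas2, the first enzyme of heme synthesis in red cell precursors, and over the 8 genes 3 were higher and 5 lower in CIA+THz against CIA, with a median of -0.049 and none past the criterion. In CIA against Ctrl 7 of the 8 were lower, with a median of -0.57 and 2 past the criterion. All 8 were lower in CIA+THz than in Ctrl, with a median of -0.65 and 3 past it, beside 3.24% of all tested genes. Of 12 ubiquitous genes, 10 were below their CIA level in CIA+THz blood, with a median of -0.088. None of these markers was at 0 in any group.

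**Figure D5:**
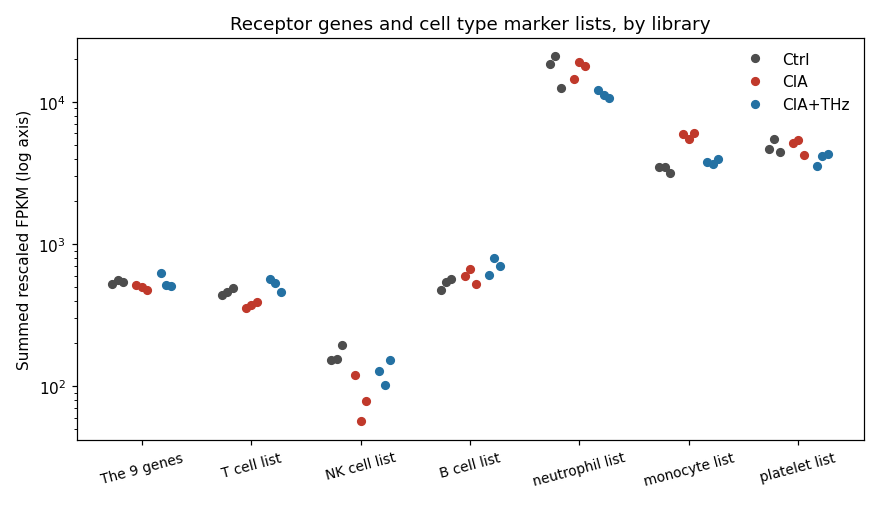
Summed rescaled FPKM, on a log axis, of the 9 receptor genes and of the T cell, NK cell, B cell, neutrophil, monocyte and platelet markers, with points for the 3 libraries of each group. The T cell marker sum is 357 to 393 in CIA, under both other groups, and the monocyte marker sum is 5483 to 6086 in CIA, above both.

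The genes whose course over the 9 libraries was closest to the average of the 9 members were Zbtb6, Gimap3, Kansl1, Pex13, Tmem129, Kbtbd11, Tubb5, Tbce, Idh3a and Prkch, out of 9739 genes ranked. Likeness was the root mean square difference of centred log2 levels over the 9 libraries, which favours genes that vary little, and it ran from 0.103 for Zbtb6 to 0.115 for Prkch. Gimap3, a lymphocyte GTPase, had Ctrl, CIA and CIA+THz means of 128, 101 and 131, and Prkch, a protein kinase C isoform, of 15.4, 13.5 and 15.2. Tmem129 was nearly level, with means of 1.42, 1.34 and 1.39. The members themselves lay at 0.0665 for Lck, 0.0819 for Cd247 and 0.110 for Cd3e, through 0.219 for Lcp2, to 0.298 for Cd5, the farthest from the average of which it is a part.

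The genes stand on GRCm38, by symbol in the GENCODE annotation, at chromosome 9 from 44981786 to 44987339 for Cd3d, 44998740 to 45009627 for Cd3e and 44969572 to 44980431 for Cd3g. Cd247 spans 165788681 to 165877277 and Zap70 36761798 to 36782818 on chromosome 1, Lck 129548344 to 129573641 on chromosome 4, Lat 126363824 to 126369570 on chromosome 7, Lcp2 34046920 to 34092295 on chromosome 11 and Cd5 10717116 to 10739002 on chromosome 19. Cd247 overlaps the protein-coding gene Pou2f1, Lcp2 overlaps 4930469K13Rik, Zap70 overlaps the pseudogene Gm18828 and Cd3e overlaps an antisense transcript, all on the opposite strand. On their own strand Cd247 overlaps Gm16565, Cd3e Gm48720, Lck Mir8119 and Lat Mir7058. Whether fragments were counted by strand is not given in the sources used here, so the values of all these genes could include fragments of their partners.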

How the data were processed

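The authors sequenced 9 libraries of blood RNA and deposited FPKM values for 20926 gene symbols. The submitters' processing notes name bcl2fastq 2.0, HISAT2, StringTie, DESeq2 and build mm10, without roles. Columns were rescaled by median-of-ratios factors, computed from 10312 genes that no library lists at 0. limma 3.58.1 in R 4.3.3 (lmFit, eBayes with a trend) was fitted to log2(rescaled FPKM + 0.1) of the 12366 genes with a mean of at least 0.1, as an F-test across the 3 groups (unadjusted p under 0.05) and on the 6 libraries of each pair (p under 0.05 and an absolute log2 difference above 0.67). On this scale the changes of low genes are understated. Adjusted p-values are Benjamini-Hochberg over all genes tested. Levels relative to the CD3 chains were compared by exact two-sided permutation.

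No whole-read steps were found in the 2 libraries examined, so depth and counting error are unknown. The members and lists were chosen with earlier results of these data known. Named pathway genes were those past the criterion, at most 4 per list and comparison, and counterparts with a mean of at least 1. Some genes of these lists are not reported here by name. The 10 like genes were those nearest the members' average among genes with a mean of at least 1. The coreceptors were also named, after their values were seen. Alternatives were the scaling, pseudocount, filter, trend, adjustment, block, a joint fit, linear analysis of variance and leaving out each library. Promoter sequences are from RefSeq. The scripts were tested on simulated data.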

Additional observations from a re-analysis of the deposited data

How the results depend on the processing

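Of the 9 receptor genes, 2 differed across the 3 groups at p under 0.05. The count was 5 with FPKM as deposited, 1 without the trend, 1 with the replicate block, 0 with adjusted p, and 1 to 3 when 1 library was left out, with 1 without Ctrl library 3, CIA+THz library 1 or CIA library 3. In CIA+THz against CIA the count past the criterion was 1, 0 with adjusted p, and 0 to 1 when 1 library was left out, with 0 without CIA+THz library 1 or CIA library 2. For the other genes of the pathway the count of 3 in CIA against Ctrl became 0 with adjusted p and ran from 2 to 5 with 1 library left out, with 5 without CIA library 1. The count of 1 in CIA+THz against CIA became 8 with FPKM as deposited, 2 with an upper quartile factor and 0 with adjusted p, and ran from 0 without CIA+THz library 1 to 4 without CIA library 3, with 2 without CIA+THz library 2 or 3. The count of 0 in CIA+THz against Ctrl became 1 with FPKM as deposited and ran from 0 to 1, with 1 without Ctrl library 2 or 3 or CIA+THz library 3.

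Signs changed where the estimate was near 0, and also for some larger estimates. In the main fit Lat was at -0.28 in CIA+THz against Ctrl. Lcp2 was at -0.16 and Zap70 at 0.21 in CIA+THz against CIA. With FPKM as deposited, Lcp2 was at 0.11 on the log2 scale in CIA+THz against CIA, and in CIA+THz against Ctrl Cd3d was at 0.24, Cd3g at 0.30, Zap70 at 0.21, Lat at 0.030 and Lcp2 at 0.24. With an upper quartile factor Cd3g was at 0.033 in CIA+THz against Ctrl. With 1 library left out, Cd3d ran from -0.28 to 0.042 in CIA against Ctrl and from -0.064 to 0.18 in CIA+THz against CIA, where Zap70 ran from -0.011 to 0.34. In CIA+THz against Ctrl the ranges were -0.23 to 0.093 for Cd3d, -0.028 to 0.13 for Cd3e, -0.14 to 0.20 for Cd3g, -0.024 to 0.12 for Cd247, -0.013 to 0.14 for Lck and -0.24 to 0.044 for Zap70. A change of scaling shifts all genes of a comparison by nearly the same amount. The cause of the changes with 1 library left out was not tested.

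Libraries with the same replicate number did not deviate together (correlations of -0.05 to 0.03). The numbers therefore mark no strong shared shift of expression, but this cannot show whether they pair mice in another way. The replicate block left 1 of the 9 genes below 0.05 across the 3 groups and 1 past the criterion in CIA+THz against CIA. Relative to the CD3 chains no alternative could pass 0.05, since the smallest exact permutation p was 0.1 or more, and 4 near-zero differences changed sign with 1 library left out. These were Zap70 in CIA against Ctrl (0.10 without CIA library 3) and in CIA+THz against CIA (0.11 without CIA library 2), and Lck (-0.029 without Ctrl library 2) and Lcp2 (0.042 without Ctrl library 1) in CIA+THz against Ctrl. FPKM gives no depth, so counting error could not be separated from differences between mice.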
